A study of Rattus norvegicus with 12 samples.

Results

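Isolated acetylated regions are stretches of the rat genome that carried a histone acetylation peak in 3 or more of 12 libraries and had no other acetylated region within 100000 bp on either side. Peaks of all 12 lists were merged where they shared at least 1 bp, which gave 23333 regions. On chromosomes 1 to 20, 13766 of them had a peak in 3 or more libraries, and 850 of these (6.17%) were isolated; the other 12916 are called the remaining regions. The members were chosen by the measured peak positions and by how many libraries had a peak, so how often each library had a peak in them, in SIANK and NC alike, is given as a description with no test.

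The libraries came from CUT&Tag on primary vascular smooth muscle cells from the rat (Rattus norvegicus), the contractile cells that give an artery its tone. With CUT&Tag, an antibody to a chromatin mark tethers a transposase that cuts and tags the DNA beside it. The 6 groups had 2 libraries each: H3K23ac, H3K27ac and H4K5ac in the condition labelled SIANK, and the same 3 marks in the condition labelled NC. The labels do not spell out SIANK or NC, name no strain, age or dose, and give no word on whether replicates were separate cultures or animals, so p-values cover the spread among libraries alone, which may be technical.

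Acetylated lysines on histone tails loosen the contact between histones and DNA and mark active chromatin. H3K27ac lies at active promoters and enhancers, H3K23ac can be set by the acetyltransferase KAT6A, and H4K5ac is found on newly made histone H4 as well as in active chromatin. Active elements tend to gather near genes in gene-rich DNA, and some enhancers lie alone in long gene-poor stretches. The lists hold positions and lengths only, their genome build is not given in the sources used here, and no gene name or sequence is attached to a region for that reason.

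The lists differed in length before any region was chosen. They held 468 to 17141 peaks in the SIANK libraries and 100 to 14034 in the NC libraries, the H4K5ac lists being the shortest. The H3K27ac lists were split by replicate number, with 4823 and 15413 peaks in SIANK libraries 1 and 2 against 2644 and 14034 in NC libraries 1 and 2. The files hold no read counts, so the sequencing depth is unknown. All binomial intervals given here are exact (Clopper-Pearson, 95%) and cover counting error over regions only.

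Isolated regions stood in a genome that was mostly empty of peaks. Distances over 100000 bp made up 4359 of the 22967 distances between neighbouring merged regions on chromosomes 1 to 20, yet they covered 2151 Mb of a 2599 Mb span (82.8%). The median distance from an isolated region to its nearest neighbour was 164736 bp, with quartiles of 124030 and 273891 bp, against a median of 7190 bp for the remaining regions. In 340 isolated regions the nearest neighbour lay over 200000 bp away, in 94 over 500000 bp and in 25 over 1000000 bp. The nearest neighbour itself had a peak in only 1 or 2 libraries for 340 of the 850 (40.0%). An isolated region was the next region along the chromosome for 334 members, and 30 had one on both sides. The longest run was 5 isolated regions in a row on chromosome 2, between positions 207990539 and 208577987. For 5 members 1 side had no further region on the chromosome, so 1 distance alone placed them.

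The region farthest from any other lay on chromosome 18 from 21109816 to 21110520, with 3712321 bp of peak-free sequence before it and 3286501 bp after it. It had H3K23ac peaks of 451 bp in SIANK library 2 and 321 bp in NC library 1, and H3K27ac peaks of 705 bp in SIANK library 2 and 538 bp in NC library 2. No other library had a peak there, so each of these marks was listed in both conditions but in few libraries. The second was on chromosome 9 from 105121207 to 105122711, at 2255498 bp from its nearest neighbour. It carried H3K23ac in all 4 libraries, with peaks of 460 and 1318 bp in SIANK and 450 and 430 bp in NC, and H3K27ac of 1505 bp in SIANK library 2 and 453 bp in NC library 2. SIANK library 2 of both marks held the long peaks at this place.

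The 10 regions with the largest distances were spread over chromosomes 1, 2, 5, 9, 15 and 18 and lay 1518247 bp or more from any neighbour. They had peaks in 3 to 8 libraries, and 7 of the 10 had H3K23ac in all 4 of its libraries. All 10 carried H3K27ac, 2 of them in all 4 libraries, and H4K5ac was listed in none. The region on chromosome 1 from 182140259 to 182140793 was short and constant: H3K23ac peaks were 408 and 483 bp in SIANK and 368 and 416 bp in NC, and H3K27ac peaks were 482 and 494 bp in SIANK and 432 and 503 bp in NC. The region on chromosome 2 from 98252303 to 98253543 also had both marks in every library, with H3K27ac peaks of 876 and 1039 bp in SIANK and 889 and 1015 bp in NC. At both places the SIANK and NC lengths of H3K27ac overlapped. H3K23ac peaks in the chromosome 2 region did not overlap, at 1127 and 1096 bp in SIANK and 862 and 898 bp in NC.

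The limit of 100000 bp divided regions that carried the same marks. Just over it lay a pair on chromosome 3, spanning 133130670 to 133131469 and 133231501 to 133232874, separated by 100031 bp and listed in 8 and 6 libraries. Just under it lay a pair on chromosome 8, spanning 26310839 to 26312217 and 26412208 to 26414381, separated by 99990 bp and listed in 7 and 8 libraries. All 4 carried H3K23ac in all of its libraries and none carried H4K5ac. The same held for the 3 regions nearest to the limit on each side. Their merged lengths varied, from 800 to 3644 bp just over the limit and from 976 to 2174 bp just under it.

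H3K23ac together with H3K27ac was the usual state of an isolated region. Both marks without H4K5ac were found at 729 of the 850 (85.8%, interval 83.2 to 88.0) and at 89.8% of the remaining regions. H3K23ac was listed in at least 1 library at 844 isolated regions (99.3%) and at 99.5% of the remaining regions, and in all 4 libraries at 437 (51.4%, 48.0 to 54.8) against 53.2%. H3K23ac alone accounted for 15 isolated regions (1.76%, 0.991 to 2.89) and 1.11% of the remaining ones. H3K27ac alone was found at 0 of 850 isolated regions and at 21 of the 12916 remaining regions (0.163%). The count of 0 allows a share of up to 0.353% if 3 counts of 850 are taken as the limit. The exact interval reaches up to 0.433%.

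H3K27ac was found in all 4 of its libraries at 167 isolated regions (19.6%, 17.0 to 22.5) and at 15.7% of the remaining regions (15.0 to 16.3). The difference lay in the 2 short lists. H3K27ac SIANK library 1 had a peak at 37.4% of isolated regions (34.1 to 40.8) and 31.4% of remaining ones, and NC library 1 at 22.1% (19.4 to 25.1) and 17.6%. The 2 long lists went the other way by a smaller margin, with 90.4% against 92.5% in SIANK library 2 and 86.6% against 87.9% in NC library 2. By replicate number, 401 isolated regions (47.2%) and 53.8% of the remaining regions had H3K27ac in the number 2 libraries only.

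H4K5ac was listed at a larger share of isolated regions than of the remaining ones, a description with no test. A peak in at least 1 of its 4 libraries was found at 106 of 850 isolated regions (12.5%, 10.3 to 14.9) and at 1155 of 12916 remaining regions (8.94%, 8.46 to 9.45). SIANK library 2, the longest H4K5ac list, supplied most of these: 102 of 850 isolated regions (interval 9.89% to 14.4%) and 1087 of 12916 remaining ones (8.42%, 7.94 to 8.91) had a peak in it, and for 74 of the 106 it was the only H4K5ac library. In the other 3 H4K5ac lists the intervals overlapped, with 24 isolated regions in SIANK library 1 (2.82% against 2.61%), 7 in NC library 1 (0.824% against 0.604%) and 23 in NC library 2 (2.71% against 2.25%). Isolated regions with H4K5ac had a median merged length of 949 bp, against 1134 bp for the 744 without it, and among the remaining regions the 1155 with H4K5ac had a median of 1231 bp.

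**Figure D1:**
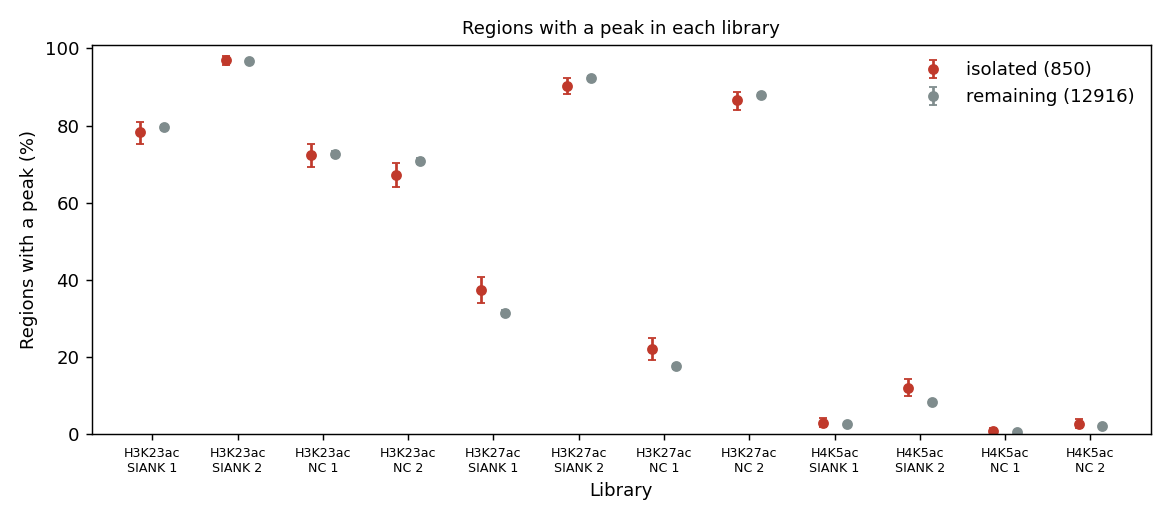
Percent of the 850 isolated (red) and the 12916 remaining (grey) regions with a peak in each of the 12 libraries; bars are exact 95% binomial intervals over regions. Both classes follow the length of the list. The isolated interval lies above the remaining one in H3K27ac SIANK 1 (37.4% against 31.4%) and H3K27ac NC 1 (22.1% against 17.6%). It does so in H4K5ac SIANK 2 too (102 of 850 against 8.42%), and in the other libraries the intervals overlap.

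At 5 isolated regions H4K5ac was the only mark, a share of 0.588% (0.191 to 1.37) against 0.240% of the remaining regions, with overlapping intervals. The most remote of these lay on chromosome 4 from 158932956 to 158933881, 371624 bp from its neighbour, with peaks of 542 and 880 bp in SIANK and 398 bp in NC library 2. The region at 165139922 to 165140658 on chromosome 2 was listed in all 4 libraries, with peaks of 643 and 556 bp in SIANK and 688 and 605 bp in NC. The region on chromosome 13 from 50611110 to 50612097 also had all 4, with peaks of 807 and 903 bp in SIANK and 360 and 514 bp in NC. The SIANK peaks were the longer ones on chromosome 13 and not on chromosome 2. The other 2 of the 5, at 127491760 to 127492376 on chromosome 2 and at 70091407 to 70092134 on chromosome 5, had peaks in both SIANK libraries and in NC library 2.

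The isolated regions listed in the most libraries reached 10 of 12, whereas 18 of the remaining regions reached 11 and 9 reached 12. A region in 9 or more libraries must carry H4K5ac, since the other marks have 8 libraries between them. On chromosome 3 from 106136014 to 106137147, at 468794 bp from its neighbour, H4K5ac peaks were 733 and 772 bp in SIANK and 295 and 701 bp in NC. H3K23ac there was 531 and 1107 bp in SIANK and 802 and 938 bp in NC, and H3K27ac was absent from both number 1 lists and 751 bp in SIANK library 2 against 1097 bp in NC library 2. On chromosome 1 from 163773358 to 163775669, H4K5ac peaks were 741 and 1674 bp in SIANK and 339 and 371 bp in NC. The SIANK peaks of H4K5ac were longer than the NC peaks at both places, while those of H3K23ac overlapped between conditions. A stretch of 295 bp was shared by all 10 libraries with a peak in the chromosome 3 region. In the chromosome 1 region no stretch was shared by all 10.

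Isolation went with the number of libraries only weakly. Among regions on chromosomes 1 to 20, 8.54% of the 6694 found in 1 library were over 100000 bp from any other, against 6.13% of the 2527 found in 2 and 6.17% of those found in 3 or more. Both the isolated and the remaining regions had a median of 6 libraries, and 59.9% of isolated regions (56.5 to 63.2) and 57.8% of remaining ones had 6 or more. By number of libraries, the isolated share ran between 4.76% and 7.77% from 3 to 10 libraries, and it was 0 of 18 at 11 and 0 of 9 at 12.

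Isolated regions were shorter than the remaining ones. Their merged length had a median of 1102 bp, with quartiles of 798.5 and 1514 bp and a range of 368 to 5909 bp. The remaining regions had a median of 1236.5 bp, with quartiles of 894 and 1751 bp and a range of 324 to 14075 bp. Broad regions of 3000 bp or more were 16 of the isolated ones (1.88%, 1.08 to 3.04) and 649 of the remaining ones (5.02%, 4.65 to 5.42). At every number of libraries from 3 to 10 the isolated median was the lower one, for example 713 against 778 bp at 3 libraries, 1245 against 1413 bp at 6 and 1556.5 against 1814 bp at 8. Merging added less to isolated regions: 91.3% of them (89.2 to 93.1) had 1 peak in each library that listed them, against 86.5% of the remaining regions.

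By geometric mean, single peaks were shorter at isolated regions in every library, so the difference was present before merging. By median they were longer in H3K27ac NC library 1 (617.5 against 611 bp). The medians were close in H3K27ac SIANK library 1 (696 against 697 bp) and lower at isolated regions in the other libraries. Geometric mean peak length of H3K23ac was 739 and 889 bp at isolated against 823 and 980 bp at remaining regions in SIANK libraries 1 and 2, and 743 and 750 bp against 808 and 812 bp in NC libraries 1 and 2. For H3K27ac it was 702 and 813 bp against 739 and 893 bp in SIANK, and 634 and 775 bp against 649 and 861 bp in NC. For H4K5ac it was 483 and 482 bp against 491 and 536 bp in SIANK, and 405 and 423 bp against 431 and 475 bp in NC. The ratio of isolated to remaining was 0.925 on average (log2 −0.11, SD 0.05, n = 12 libraries) and lay between 0.889 and 0.985. It was below 1 in 12 of 12 libraries, and an exact two-sided sign-flip permutation test over libraries gave p = 0.000488, the smallest it can give. All libraries measure the same regions, so this p covers the spread between libraries and not a sampling of regions.

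**Figure D2:**
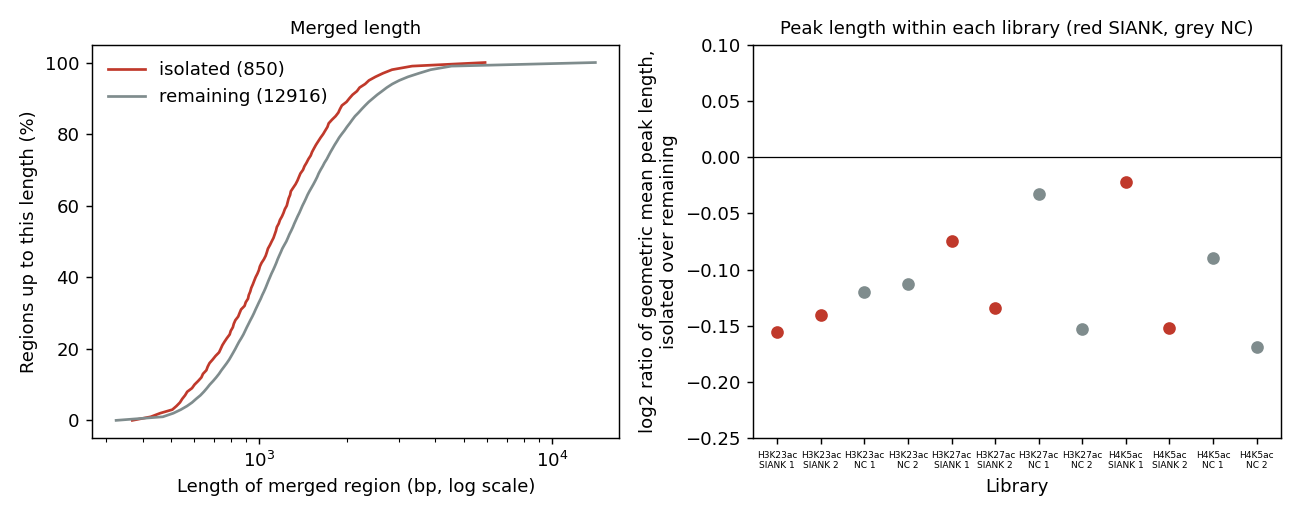
Left, cumulative percent of the isolated (red) and remaining (grey) regions by merged length on a log axis; right, log2 ratio of geometric mean peak length at isolated over remaining regions, 1 point per library (red SIANK, grey NC). The isolated curve lies to the left, with medians of 1102 against 1236.5 bp, and all 12 points are below 0.

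The longest isolated regions were exceptions to this. The region on chromosome 15 from 90174104 to 90180012 spanned 5909 bp, with H3K23ac peaks of 4264 and 5578 bp in SIANK and 3882 and 3905 bp in NC. Its H3K27ac peaks were 2467 and 4082 bp in SIANK and 5747 bp in NC library 2, with none in NC library 1. The region on chromosome 1 from 64443999 to 64449030 spanned 5032 bp, with H3K23ac of 2908 and 4512 bp in SIANK and 3186 and 2149 bp in NC. Here the conditions overlapped for H3K23ac, while on chromosome 15 both SIANK peaks were longer than both NC peaks. All 5 longest regions had H3K23ac in all 4 libraries and none had H4K5ac.

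Peaks of different libraries lay on top of each other in most isolated regions. A stretch shared by every library with a peak was found in 814 of the 850 (95.8%) and in 94.2% of the remaining regions. The median shared stretch was 363 bp, or 36.9% of the merged length, in isolated regions, against 378 bp or 33.4% in the remaining ones.

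Merged length was lower with each class of distance to the nearest region up to 500000 bp, and the medians on the 2 sides of 100000 bp were close. Median merged length was 1364 bp for the 2444 regions with a neighbour within 1000 bp, 1198.5 bp between 5000 and 20000 bp, 1149 bp between 50000 and 100000 bp, 1139.5 bp between 100000 and 200000 bp and 1065 bp for the 94 regions over 500000 bp. The share with H4K5ac was 4.99% (4.16 to 5.93) within 1000 bp, 9.39% (8.37 to 10.5) between 1000 and 5000 bp, 9.85% (8.93 to 10.8) between 5000 and 20000 bp, 11.5% (9.77 to 13.5) between 50000 and 100000 bp, and 13.8% (7.57 to 22.5) over 500000 bp. The widest step was thus between the 2 nearest classes, and the intervals overlapped between all later neighbouring classes. H3K27ac of NC library 1, the shortest list of that mark, was found at 15.1% (13.7 to 16.6) of regions in the nearest class. Its share was 21.3% between 20000 and 50000 bp and 21.1% between 50000 and 100000 bp. It was 22.4% between 100000 and 200000 bp and 19.9% (15.1 to 25.5) between 200000 and 500000 bp. In the farthest class it was 26.6% (18.0 to 36.7). The higher share was thus also found at remaining regions over 20000 bp from a neighbour. In NC library 2, a longer list, the shares in the nearest and farthest classes were 89.0% and 85.1%. The share with H3K23ac in all 4 libraries had no such order, at 52.0% in the nearest class, 48.4% between 200000 and 500000 bp and 58.5% in the farthest.

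**Figure D3:**
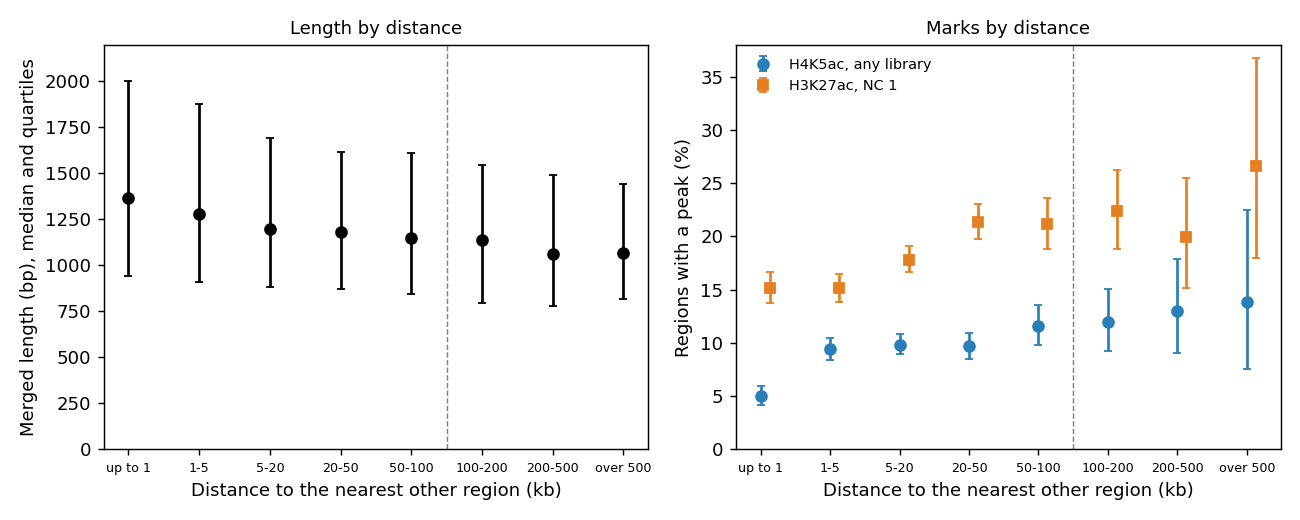
Left, merged length (median, bars from the lower to the upper quartile) and right, percent of regions with H4K5ac in any library (blue circles) or H3K27ac in NC library 1 (orange squares; bars are exact 95% binomial intervals), by distance to the nearest other region in kb. The dashed line marks 100 kb. Median length is 1364 bp in the first class and 1065 bp in the last, and the H4K5ac share is 4.99% and 13.8%.

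Isolated regions lay on all 20 chromosomes, in unequal shares. Chromosome 2 held 108, or 11.9% of its regions with 3 or more libraries (9.83 to 14.1), and chromosome 1 held 104 (6.55%, 5.38 to 7.88). The lowest shares were 22 of 1188 on chromosome 10 (1.85%, 1.16 to 2.79), 11 of 428 on chromosome 20 (2.57%, 1.29 to 4.55) and 13 of 489 on chromosome 12 (2.66%, 1.42 to 4.50). Chromosomes 10 and 12 had the most merged regions per Mb (17.3 and 15.6), and chromosomes 15 and 2 the fewest (5.87 and 6.05). Across the 20 chromosomes the isolated share went down with density (Pearson r = −0.85, Spearman rho = −0.80), which the rule builds in, as closer spacing leaves fewer isolated regions. Counted per 100 Mb, isolated regions ran between 19.6 on chromosome 20 and 40.6 on chromosome 2, and the relation to density was looser (r = −0.46, rho = −0.27). Chromosome 15 was as sparse as chromosome 2 but held 26.5 per 100 Mb.

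**Figure D4:**
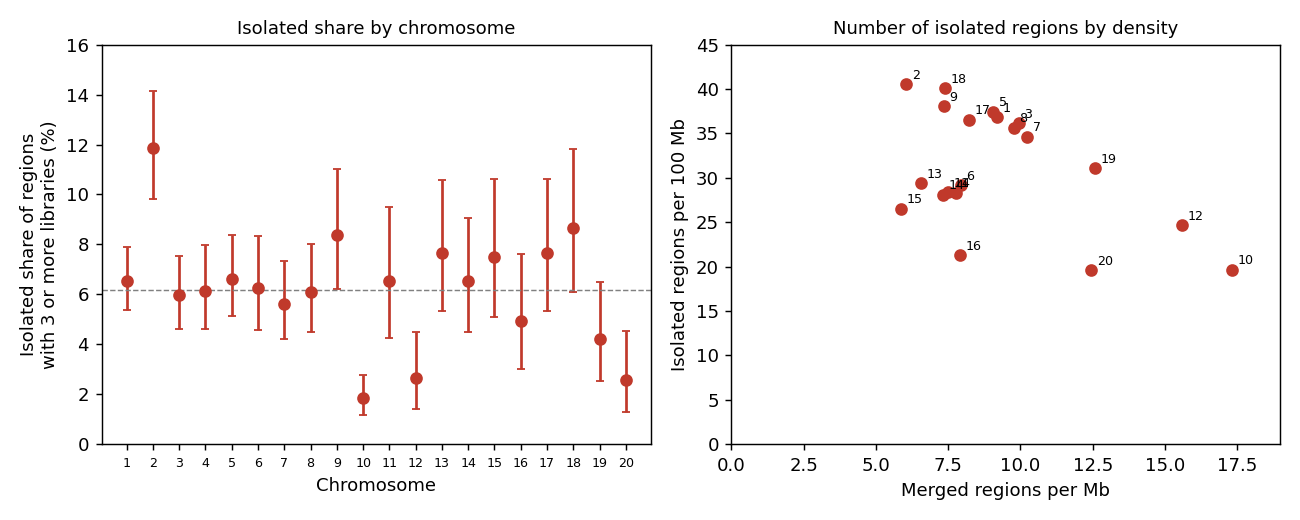
Left, isolated regions as a percent of the regions with 3 or more libraries on each chromosome (bars are exact 95% binomial intervals; dashed line, 6.17% over all); right, isolated regions per 100 Mb against merged regions per Mb, 1 point per chromosome, numbered. Chromosome 2 has the highest share (11.9%) and chromosome 10 the lowest (1.85%).

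The comparison of SIANK with NC cells asks whether isolated regions gained or lost acetylation. By number, H3K23ac was found at 665 and 825 isolated regions in SIANK libraries 1 and 2 and at 615 and 572 in NC libraries 1 and 2. H3K27ac was found at 318 and 768 in SIANK and 188 and 736 in NC, and H4K5ac at 24 and 102 in SIANK and 7 and 23 in NC. Both SIANK libraries lay above both NC libraries for H3K23ac and H4K5ac, and the H3K27ac groups overlapped. The ratio of geometric means (of the number plus 1) was 1.25 (log2 0.32, SE 0.16) for H3K23ac. It was 1.33 (log2 0.41, SE 1.17) for H3K27ac and 3.66 (log2 1.87, SE 1.29) for H4K5ac. Over the 3 marks it was 1.82 (log2 0.87), which was log2 0.12 with lists of equal length within each mark and was 0.36 without H4K5ac. Leaving out 1 library gave log2 values of 0.54, without H3K27ac NC 1, to 1.19, without H4K5ac SIANK 1. A peak in 3 or more of these same libraries chose the regions, so these numbers are a description and no p is given for them.

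Set against the length of each list, isolated regions averaged a smaller share of the SIANK lists, which is again a description with no test. The percent of a library's peaks on chromosomes 1 to 20 that lay in isolated regions was 4.94 and 4.96 in SIANK against 5.01 and 5.57 in NC for H3K23ac. It was 6.76 and 5.17 in SIANK against 7.26 and 5.49 in NC for H3K27ac, and 5.23 and 6.09 in SIANK against 7.37 and 6.32 in NC for H4K5ac. The NC 1 value of H4K5ac stands for 7 of 95 peaks (interval 3.01 to 14.6). The mean difference over the marks was −0.65 percentage points. It turned to 0.48 percentage points with lists of equal length within each mark, was −0.0029 when 2 or more libraries sufficed, and ran between −2.26 at over 50000 bp and −0.12 at over 200000 bp. Without 1 library it ran between −1.01 (without H3K27ac NC 2) and −0.36 (without H3K27ac NC 1), so neither its size nor its sign was stable.

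Where a mark was present throughout, peaks at isolated regions averaged longer in the SIANK libraries, by a difference that did not pass after adjustment. At 437 isolated regions with H3K23ac in all 4 libraries, the geometric mean of peak length came to 903 and 1196 bp in SIANK and 879 and 863 bp in NC, a ratio of 1.19 (log2 0.25, SE 0.20). At the 167 isolated regions with H3K27ac in all 4, lengths averaged 855 and 1073 bp in SIANK and 656 and 1014 bp in NC, a ratio of 1.17 (log2 0.23, SE 0.35). At the 6 with H4K5ac in all 4, they averaged 624 and 848 bp in SIANK and 430 and 510 bp in NC, a ratio of 1.55 (log2 0.64, SE 0.25). The H3K27ac groups overlapped and those of the other marks did not. The ratio over the 3 marks was 1.30 (log2 0.37), and the exact permutation p, two-sided and within marks, was 0.0370 (the smallest possible is 0.00926). Within a mark 2 libraries against 2 cannot give a p under 0.333. Adjusted by Benjamini-Hochberg over the 3 comparisons of SIANK with NC that were computed (number, share and length), this exact permutation p was 0.111 and did not pass.

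The unadjusted length call was lost without any 1 of 8 libraries, and a similar ratio was measured at the remaining regions. The exact permutation p was 0.0741, 0.0648 and 0.0648 without H3K23ac NC 1, NC 2 or SIANK 2, with log2 ratios of 0.37, 0.36 and 0.31. It was 0.222 and 0.120 without H3K27ac NC 1 or SIANK 2 (log2 0.24 and 0.32), and 0.102, 0.0648 and 0.0648 without H4K5ac NC 1, NC 2 or SIANK 2 (log2 0.30, 0.42 and 0.30). Each of these tests had fewer arrangements (108), and without H3K23ac NC 1 or NC 2 the ratio itself hardly moved. The exact permutation p was 0.0278 without H3K23ac SIANK 1, 0.00926 without H3K27ac NC 2, and 0.0370 without H3K27ac SIANK 1 or H4K5ac SIANK 1. At the remaining regions the same measure gave a ratio of 1.31 (log2 0.39, exact permutation p = 0.0648). The difference between isolated and remaining regions in this effect was −0.02 on the log2 scale (exact two-sided stratified permutation p = 0.731), so no difference between the classes was detected. This comparison with the remaining regions was added after the isolated values had been seen.

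**Figure D5:**
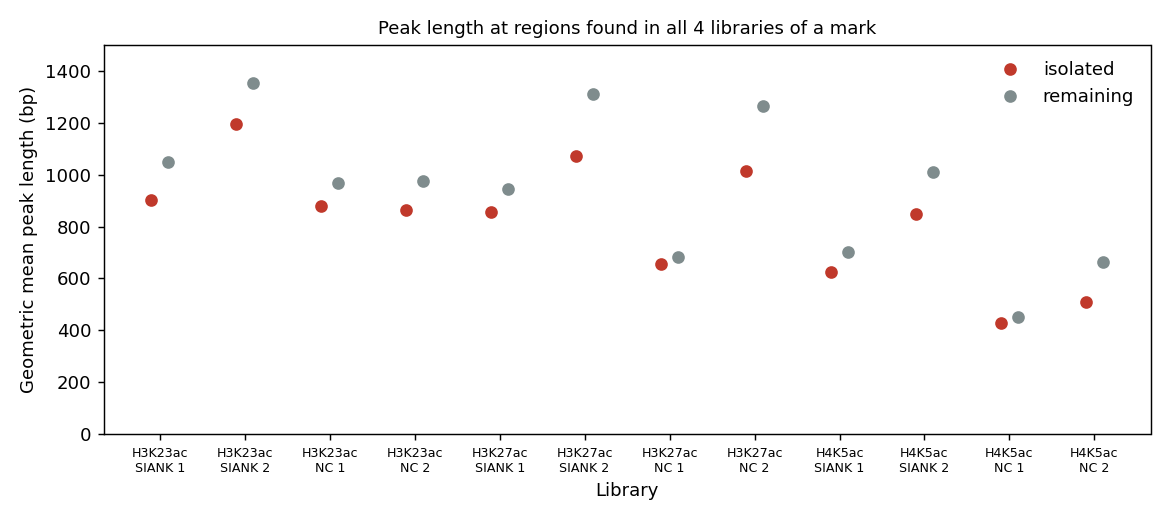
Geometric mean peak length in bp in each library at regions with a peak in all 4 libraries of the mark, for isolated (red; 437, 167 and 6 regions) and remaining regions (grey; 6877, 2023 and 59 regions). Isolated points lie below remaining ones in all 12 libraries, and both classes are higher in SIANK than in NC for H3K23ac and H4K5ac.

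Single regions showed the same mixture. For H3K23ac, 154 of 437 isolated regions (35.2%) had longer peaks in both SIANK than in both NC libraries, against 37.8% over all regions with that mark in all 4 libraries, and 8 had shorter ones (1.83% against 1.93%). For H3K27ac, 35 of 167 (21.0%) had longer peaks, against 13.9% over all, and 7 had shorter ones (4.19% against 1.46%), so both directions were above the share over all regions. For H4K5ac, 3 of 6 had longer peaks, against 49.2% over all.

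The 6 isolated regions with H4K5ac in every library included the pair without other marks on chromosomes 2 and 13. The others were those on chromosomes 1 and 3 already described, a region at 5841338 to 5842549 on chromosome 4 and another at 207990539 to 207991332 on chromosome 2. The chromosome 4 region had H4K5ac peaks of 488 and 771 bp in SIANK and 328 and 506 bp in NC. The chromosome 2 region, which opens the longest run of isolated regions, had 431 and 745 bp in SIANK and 780 and 428 bp in NC. Lengths in SIANK and NC overlapped at both.

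Gained regions had a peak of the mark in SIANK libraries 1 and 2 and were free of it in NC, and lost regions had the reverse. H3K23ac was gained at 79 of 850 isolated regions (9.29%, 7.43 to 11.4), against 8.64% of all 13766 regions with 3 or more libraries. H3K27ac was gained at 14 (1.65%, 0.903 to 2.75), against 0.915%, and H4K5ac at 8 (0.941%, 0.407 to 1.85), against 1.02%. Each interval holds the share over all regions, which include the isolated ones. For H3K27ac the remaining regions alone had 0.867% (0.715 to 1.04), just below the isolated interval, and the 2 intervals overlapped. H3K23ac and H4K5ac were lost at 0 isolated regions, against 0.102% and 0.00726% of all regions. A count of 0 allows a share of up to 0.353% with 3 counts of 850 as the limit, and up to 0.433% by the exact interval. H3K27ac was lost at 1, against 0.0581%. These counts carry no test and rest on all 4 libraries of a mark. The H3K23ac lists held 14356 and 17141 peaks in SIANK and 12909 and 10720 in NC. With lists of equal length within each mark, 869 regions were isolated. H3K23ac was then gained at 10 of them and lost at 6, H3K27ac at 5 and 4, and H4K5ac at 2 and 0. The shares over all regions are not given for those lists.

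The most remote gain of H3K23ac was on chromosome 1 from 107231481 to 107232291, 1968473 bp from its nearest neighbour, where H3K23ac peaks measured 747 and 577 bp in SIANK and none in NC. It carried H3K27ac in 1 library alone, NC library 2, with a peak of 793 bp. The next was on chromosome 20 from 17090371 to 17091732, with H3K23ac of 911 and 812 bp in SIANK, and with H3K27ac of 788 bp in SIANK library 1 against 731 and 927 bp in NC. At both places H3K27ac was thus listed in NC cells where H3K23ac was not. This held for 54 of the 79 gained isolated regions (68.4%, 56.9 to 78.4) and for 67.7% of the 1111 gained remaining regions. H3K27ac NC library 2 alone had a peak at 86.6% of all isolated and 87.9% of all remaining regions. H3K27ac in NC was thus less common at these gains than over all regions. The gains lack H3K23ac in NC by definition, and they were not matched with other regions on the number of libraries. A gain of H3K23ac fills only 2 libraries, so the requirement of 3 or more libraries forced a peak of another mark at all of these regions, in SIANK or NC.

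The mark's average length at isolated regions in SIANK was 702 and 813 bp. Among the 5 most remote gains of H3K27ac, all but the one on chromosome 8 had peaks below this in both SIANK libraries. The most remote was on chromosome 5 from 27285367 to 27286469, where H3K27ac peaks measured 686 and 489 bp in SIANK and none in NC, and with H3K23ac of 462 bp in NC library 2 alone. The next, on chromosome 8 from 25668956 to 25669940, had H3K27ac peaks of 782 and 866 bp in SIANK, both above that average. On chromosome 15 from 45421978 to 45422490, the gain of 415 and 513 bp in SIANK lay on H3K23ac found in all 4 libraries, of 489 and 489 bp in SIANK and 443 and 441 bp in NC. The gains at 33909251 to 33909822 on chromosome 20 and at 157098701 to 157099305 on chromosome 3 were short too. Their H3K27ac peaks in SIANK measured 406 and 423 bp on chromosome 20, and 396 and 463 bp on chromosome 3. The 1 lost region, on chromosome 2 from 52672350 to 52673283, had H3K27ac peaks of 934 and 457 bp in NC and none in SIANK. H3K23ac ran the other way in this merged region, with 447 and 309 bp in SIANK and none in NC. The peaks of the 4 libraries listed there shared only 9 bp, so the 2 marks lay largely side by side or in part apart.

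All 8 isolated regions that gained H4K5ac carried both other marks in NC libraries. Among the 133 remaining regions that gained it, 80.5% had H3K23ac and 84.2% had H3K27ac in an NC library. The interval for 8 of 8 reaches down to 63.1%, so the 2 classes cannot be told apart by this count. Over all isolated regions, H3K27ac NC library 2 alone had a peak at 86.6% and H3K23ac NC library 1 alone at 72.4%. Both marks were thus common in NC at isolated regions of any kind. Here too a gain fills only 2 libraries, so the requirement of 3 forced another mark in some library. The most remote was on chromosome 3 from 97993210 to 97994202, 895686 bp from its neighbour, with H4K5ac of 369 and 724 bp in SIANK and none in NC. It had H3K23ac of 993 and 539 bp in SIANK against 350 bp in NC library 1, and H3K27ac of 397 and 407 bp in SIANK against 659 bp in NC library 2. On chromosome 18 from 70732650 to 70734511, H4K5ac of 361 and 650 bp in SIANK lay on longer H3K23ac peaks of 1299 and 1247 bp in SIANK and 1538 and 1087 bp in NC. H3K23ac there was listed in every library, and its SIANK and NC lengths overlapped.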

How the data were processed

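The authors deposited 1 CUT&Tag peak list per library, not pooled; per the file headers it gives chromosome, start, end and length in bp, with no score or count. BWA and deepTools appear, without roles, in the submitters' processing notes; caller, threshold, control and build are not stated in the sources used here. A list can be longer through deeper sequencing or a looser threshold as well as through more marked regions. Positions do not match the gene table at hand (GRCr8), beyond whose last genes 2696 peaks lay, so no gene or sequence was assigned.

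Libraries were grouped by their titles. Peaks sharing 1 bp were merged, distances counted the bases between regions, and a region without a neighbour on 1 side was judged by the other. Merging and distances were checked against bedtools 2.31.1 and tested on simulated data. Named regions were the 10 most remote, the 10 in most libraries, the 5 longest, up to 5 gained and 5 lost per mark, up to 5 with H4K5ac alone and 3 on each side of the limit, some given as counts; 2 regions with H4K5ac in all 4 libraries were added after their values were seen. Members, rule and tests were chosen with earlier results of these data known. Permutation p-values planned for the number and share of isolated regions per library are not used, since peak presence chose the members. Peak lengths in SIANK and NC were compared by exact permutation of labels within marks (216 arrangements), with lengths summed per region and library, and isolated with remaining regions by exact sign flips over libraries (4096). Alternatives changed the distance limit, the merging, the number of libraries required and the libraries included. Tools were scipy 1.17.1, numpy 2.4.6, pandas 2.3.3 and matplotlib 3.10.9 under Python 3.11.15.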

Additional observations from a re-analysis of the deposited data

Results flagged for a closer look

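Chromosomes X and Y lie outside the definition used here. They are listed here as data that no comparison above used, which says nothing of whether they are unusual. Chromosome X held 43 regions found in 3 or more libraries and over 100000 bp from any other. They were 23.6% of its 182 regions with 3 or more libraries (exact 95% binomial interval 17.7 to 30.5), against 11.9% on chromosome 2, the highest share on chromosomes 1 to 20. The rule ties this share to the density of regions, which is not given here for chromosome X. Their median merged length was 1034 bp, and 2 of the 43 carried H4K5ac. Chromosome Y had 1 such region of 3. No group had the 4 libraries that a check for single libraries standing apart needs.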

How the results depend on the processing

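The alternatives gave 235 values, and tests among them were judged by the unadjusted p. Of these values, 171 held their sign and their side of 0.05 or lay within 1.5 times the reported count. Of the others, 45 counts moved, 14 tests no longer passed, 4 passed newly and 1 reversed. The 4 were the number and share of isolated regions with the replicate block, which are not read as calls because the presence of peaks chose the regions. The shorter geometric mean peak length at isolated regions passed under every alternative run (log2 −0.12 to −0.07). The number of isolated regions was 2019 at over 50000 bp, 340 at over 200000 bp and 1673 when only regions with 3 or more libraries counted as neighbours; without each library in turn it was 798 to 908. The log2 length ratio of SIANK over NC (0.37) passed as reported by its unadjusted p only. It no longer did so at over 50000 bp (0.36), at over 200000 bp (0.23) or with lists of equal length (0.23). Nor did it with neighbours of 3 or more libraries (0.33), with the upper 50% of each list (0.18) or without H4K5ac (0.24). In the alternatives at 200000 bp, with equal lists, with the upper 50% and without H4K5ac, H4K5ac was out of the test and the smallest p was 0.0556, so no call was possible. Leaving out 1 library gave 0.24 to 0.49. The share of peaks in isolated regions (−0.65 percentage points) was 0.48 with equal lists, −0.0029 with 2 or more libraries, −0.12 at over 200000 bp, −2.26 at over 50000 bp, −1.54 with the upper 50% and −1.26 with neighbours of 3 or more libraries. The log2 number ratio (0.87) was 0.12 with equal lists, 0.36 without H4K5ac and 0.79 to 1.02 under the others that changed lists or limits.

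The labels do not say that a number marks a shared culture. Deviations of same-numbered libraries correlated at −0.04 for H3K23ac, 0.42 for H3K27ac and −0.24 for H4K5ac, so same-numbered libraries went together for H3K27ac and not for the other marks, and the numbers were not taken as pairs. With the replicate block the length ratio passed, unadjusted, at the smallest p that test can give (exact permutation p = 0.0312). Crossing the H4K5ac numbers, chosen after seeing the data, left that unadjusted call as it was. The number (log2 0.87) and the share (−0.65 points) have the same values with the block, crossed or not.

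Gained counts of H3K23ac (79) were 185 at 50000 bp, 44 at 200000 bp, 50 with 4 or more libraries, 156 with neighbours of 3 or more libraries and 10 with equal lists, and 59 to 153 without 1 library. Those of H3K27ac (14) were 24, 5, 7, 23 and 5 in the same order, and 8 to 128. Those of H4K5ac (8) were 25 at 50000 bp, 4 at 200000 bp, 22 with 2 or more libraries, 26 with neighbours of 3 or more libraries and 2 with equal lists, and 8 to 82. Lost counts of H3K23ac (0) were 1 at 50000 bp, 2 with neighbours of 3 or more libraries, 3 with the upper 50% and 6 with equal lists, and 0 to 41 without 1 library. Those of H3K27ac (1) were 2, 3, 2 and 4 in the same order, 0 at 200000 bp, and 1 to 35. Those of H4K5ac (0) were 0 to 2 without 1 library. The cause was not tested. The lists give no depth, so a missing peak does not show a missing mark.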
